A study of Mus musculus with 2 samples.

Results

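The 42 genes described here encode the ligands, receptors, Smads, antagonists and Id response genes of the BMP and TGF-beta pathways. They were chosen by symbol, and each had exactly 1 row among the 22423 genes of the count table. They comprised 8 BMP and GDF ligands, the proteinase gene Bmp1, 3 TGF-beta ligands, 2 activin subunits, 5 type I receptors, 4 type II receptors, 1 co-receptor, 8 Smads, 4 Id genes, 4 secreted antagonists and 2 membrane antagonists. The study compared the cerebellum of Prdm16 conditional knockout mice (Prdm16 cKO) with that of Prdm16fl/fl control mice, which carry floxed alleles, on the C57BL/6 strain and at postnatal day 3 (P3). The Cre line, the deleted exons, any further alleles of the cKO and any pooling of animals are not named in the labels. Triplicates are mentioned in the design text, yet each genotype had 1 column of read counts, treated here as 1 library. No difference below therefore has a replicate check, and no test between the genotypes was possible.

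BMP and TGF-beta ligands are secreted dimers that bring type I and type II receptor kinases together on the cell surface. The type I receptor phosphorylates receptor-regulated Smads, which join Smad4 and enter the nucleus. Smad1, Smad5 and Smad9 carry the BMP branch, Smad2 and Smad3 the TGF-beta and activin branch, and Id genes are direct targets of the BMP branch. In the developing hindbrain, BMPs from the roof plate help to set up the rhombic lip, the source of granule neuron progenitors, and BMP signalling is known to restrain the proliferation of these progenitors. Prdm16 is known to bind the Smad corepressor Ski.

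The cKO library held 17501279 reads over genes and the control library 18600299. Prdm16 itself had 118 reads in the cKO and 315 in the control, a log2 ratio of -1.30. Markers of cerebellar granule neuron progenitors were abundant in both, summing to 3342 CPM (reads scaled to library size) in the cKO and 3122 CPM in the control. Each ratio below is the log2 of cKO divided by control, and the range that follows it is an exact 95% counting interval. A gene is called lower or higher by the 2-fold rule when the ratio is at least 2-fold and the interval excludes 0. Of the 14 choroid plexus markers, 12 were lower by this rule and 0 higher, with summed levels of 190.5 CPM in the cKO and 6066 CPM in the control. Of the 14 meningeal fibroblast markers, 13 had intervals above 0, with 3429 CPM in the cKO and 2859 CPM in the control. Of the 14 granule neuron progenitor markers, 11 had intervals above 0 (78.6%, against 17.0% of all genes) and 1 below. These markers had 1349 to 32823 reads over both libraries, and 25.4% of all genes with at least 500 reads had intervals above 0. The median ratio of the 14 markers was 0.15. Of 10 brainstem neuron markers, 8 had at least 10 reads and 4 of these were lower, and all 10 summed to 8.31 CPM in the cKO and 16.4 CPM in the control. None of the choroid plexus, meningeal or brainstem markers in the table was at 0 in either library. Sex-linked transcripts also separated the libraries, with 21 Xist reads in the cKO and 14779 in the control, so genotype and this sex pattern cannot be told apart. In whole tissue, fewer cells of a type and less RNA per cell cannot be told apart either.

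Most genes of the pathway stood at like levels in both libraries, and 1 of the 42, the ligand gene Gdf7, was lower in the cKO by the 2-fold rule. That is 2.38% of the members, against 2.20% of the 18787 genes with at least 10 reads. None was higher, against 1.21% of all genes. With 1.5-fold in place of 2-fold, Smad9 joined Gdf7, which makes 4.76% of the members lower against 3.92% of all genes. None was higher by 1.5-fold either, against 2.26% of all genes. The members' shares past these rules were thus close to those of all genes.

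Smaller differences ran more often downwards. The intervals lay below 0 for 10 of the 42 genes (23.8%), against 15.5% of all genes, and above 0 for 4 (9.52%), against 17.0% of all genes. The 10 were Gdf7, Bmp6, Tgfb2, Inhba, Bmpr1a, Tgfbr2, Smad3, Smad5, Smad9 and Smad6, and the 4 were Tgfbr1, Id2, Nog and Chrd. With library-total scaling, 3562 of all genes had an interval below 0 and 2578 above, in place of 2916 and 3201, and 13 members lay below and 3 above. The shares depend on depth as well. Among the 28 members with at least 500 reads, 6 intervals lay below 0 (21.4%) and 3 above (10.7%), against 20.0% and 25.4% of all 10160 genes with that depth. The median log2 ratio of the 42 genes was -0.03, against 0.01 over all genes, and 38 of them lay within 0.5 of 0. Summed over the 42 genes, the libraries held 1982 CPM in the cKO and 1987 CPM in the control.

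**Figure D1:**
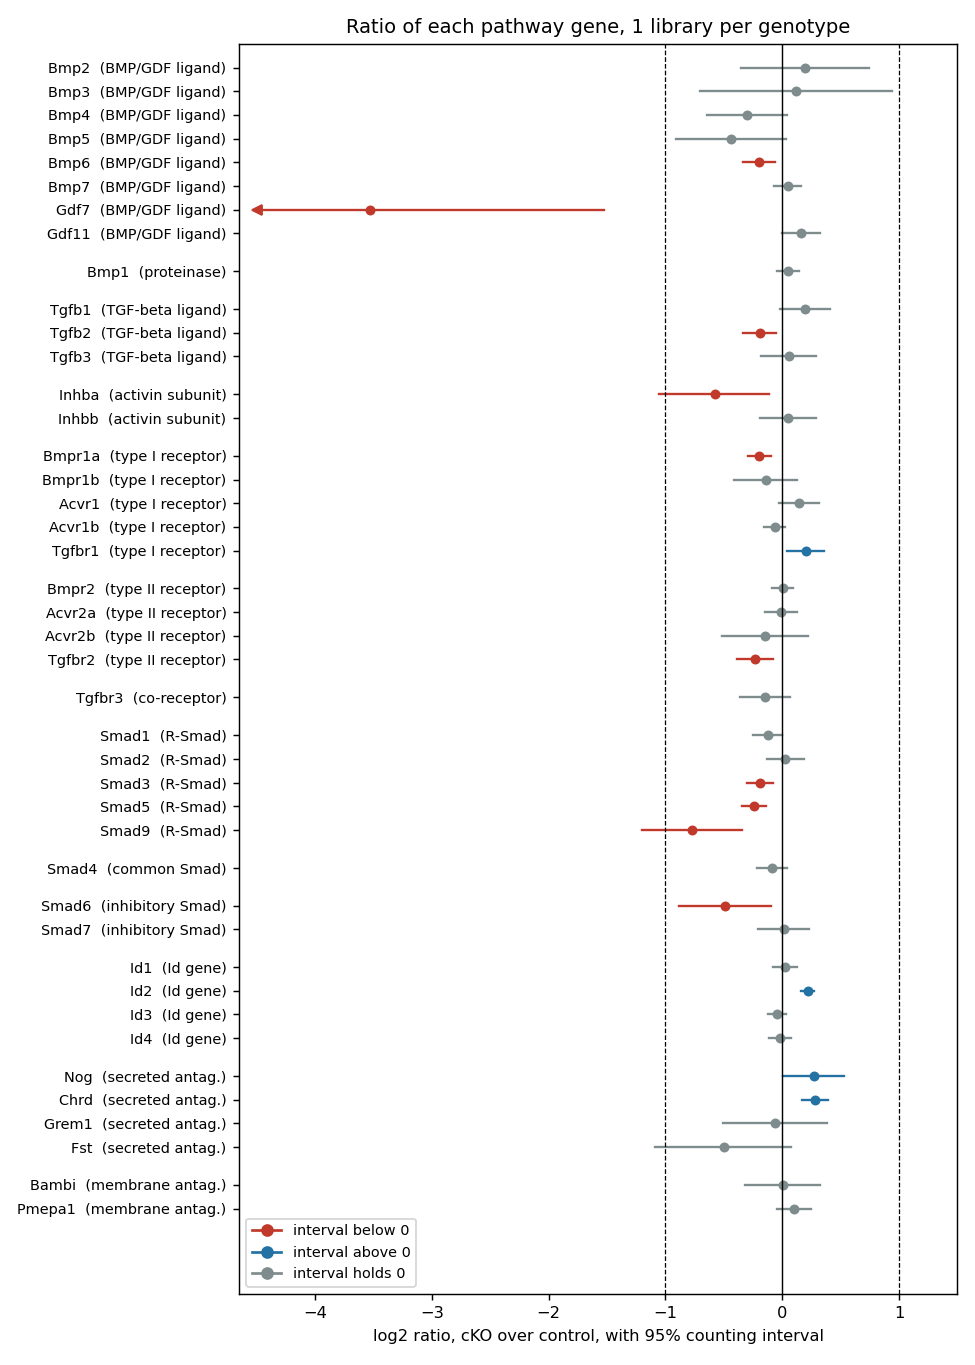
The log2 of cKO divided by control (horizontal axis) is plotted for each of the 42 genes, grouped by role, with lines for the 95% counting interval and dashed lines at 2-fold. Gdf7 stands apart at -3.53, its interval running past the left edge to -6.65, Smad9 is next at -0.77, and the other genes lie between -0.58 and 0.28.

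To show the sequence ahead of the genes that mark the ends of this range, the 250 bases upstream of the transcript start are given for Gdf7 and Smad9 (lowest), Id2 and Chrd (the Id gene and the antagonist with the highest ratios) and Id3 (an Id gene whose interval held 0). They come from RefSeq on build GRCm38.p6. The submitters' processing notes name mm9, and the count table gives no coordinates. Each is written 5′ to 3′ on the strand of its gene, and capitals mark GGCGCC, the GC-rich core bound by BMP Smads, and CAGAC or its reverse complement GTCTG, the Smad box. Both strands were searched and overlaps were allowed.
Gdf7 (chr12:8301955-8302204, minus strand): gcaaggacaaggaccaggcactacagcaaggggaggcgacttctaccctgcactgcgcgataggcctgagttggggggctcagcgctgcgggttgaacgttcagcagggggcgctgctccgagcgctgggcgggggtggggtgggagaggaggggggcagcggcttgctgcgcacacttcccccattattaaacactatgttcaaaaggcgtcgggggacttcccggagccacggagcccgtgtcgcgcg
Smad9 (chr3:54755332-54755581, plus strand): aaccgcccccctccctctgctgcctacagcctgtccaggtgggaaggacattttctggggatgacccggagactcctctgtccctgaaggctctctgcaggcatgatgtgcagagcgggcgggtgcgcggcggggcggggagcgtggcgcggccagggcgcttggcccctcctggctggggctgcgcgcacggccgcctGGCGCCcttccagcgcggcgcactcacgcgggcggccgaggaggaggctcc
Id2 (chr12:25096093-25096342, minus strand): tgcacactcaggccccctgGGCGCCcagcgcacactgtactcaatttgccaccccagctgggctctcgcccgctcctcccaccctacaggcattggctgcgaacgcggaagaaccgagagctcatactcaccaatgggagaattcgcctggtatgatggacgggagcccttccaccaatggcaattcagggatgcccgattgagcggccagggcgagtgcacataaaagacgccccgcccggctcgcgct
Chrd (chr16:20732877-20733126, plus strand): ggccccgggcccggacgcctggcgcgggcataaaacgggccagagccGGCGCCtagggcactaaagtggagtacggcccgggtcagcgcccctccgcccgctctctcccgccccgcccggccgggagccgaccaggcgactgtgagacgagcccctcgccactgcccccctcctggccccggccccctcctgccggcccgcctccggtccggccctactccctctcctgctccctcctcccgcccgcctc
Id3 (chr4:136143572-136143821, plus strand): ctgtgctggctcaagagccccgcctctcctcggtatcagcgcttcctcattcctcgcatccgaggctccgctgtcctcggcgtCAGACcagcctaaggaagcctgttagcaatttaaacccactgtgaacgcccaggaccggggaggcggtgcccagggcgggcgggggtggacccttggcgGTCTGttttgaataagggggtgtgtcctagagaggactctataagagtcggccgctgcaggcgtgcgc
GGCGCC was present in the Smad9, Id2 and Chrd windows and CAGAC in the Id3 window, while the Gdf7 window held neither. The genes whose window held GGCGCC thus included Smad9, with the second lowest ratio of the 42, and Chrd, with the highest. Over the 28 members found in the RefSeq table, with 33 windows because some have several starts, 9 windows held GGCGCC and 12 held CAGAC. Bmp1, Bmp2, Bmp3, Bmp7, Tgfb3, Tgfbr3, Smad2, Smad4, Smad7, Id1, Nog, Fst, Bambi and Pmepa1 were not searched. Among all 32851 windows of the table the shares were 9.59% and 42.2%. The printed windows were 62.8% to 78.0% G and C. These matches describe letters in a window, not binding.

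Gdf7 encodes a BMP family ligand of the dorsal midline and is a classical marker of the embryonic roof plate. It had 2 reads in the cKO, or 0.115 CPM, and 25 reads in the control, or 1.33 CPM. The log2 ratio was -3.53 (-6.65 to -1.52), 11.5-fold lower in the cKO, with a wide interval because so few reads were counted. The 2 libraries' Poisson intervals did not overlap, at 0.0140 to 0.417 CPM in the cKO and 0.861 to 1.96 CPM in the control. These intervals rest on the same reads as the ratio and add no separate check. With a minimum of 50 reads Gdf7 would drop out and no member would pass the 2-fold rule. The choroid plexus list stood at a median of -3.86 in the same pair of libraries, and its part in the Gdf7 result was not tested.

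The other BMP and GDF ligands were within 1.5-fold of each other in the 2 libraries. Bmp6, a BMP ligand, had 791 reads in the cKO and 985 in the control, a ratio of -0.20 (-0.34 to -0.06). Its exons share 224 bases with Txndc5 on the opposite strand, and strand use during counting is not given, so some of these reads may belong to either gene. Bmp7, the BMP ligand with the highest level per exon length, had 1152 reads in the cKO and 1211 in the control (0.05, -0.07 to 0.16). Gdf11, a ligand that signals through the activin branch, had 632 in the cKO and 613 in the control (0.16, -0.00 to 0.32). Both of these intervals held 0. Bmp4, a ligand of the dorsal neural tube and of mesenchyme, had 127 reads in the cKO and 170 in the control (-0.30, -0.65 to 0.04). Bmp5 had 66 in the cKO and 97 in the control (-0.44, -0.91 to 0.03). An antisense transcript covers 49.1% of the Bmp5 exon length, and it had 3 cKO and 1 control reads. Neither Bmp4 nor Bmp5 was distinguishable from equal levels at this depth. The same held for Bmp2, with 60 cKO and 57 control reads (0.19, -0.36 to 0.74), and for Bmp3, with 27 in each library (0.12, -0.71 to 0.94).

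In RPKM (reads per kilobase of exon, scaled to library size), Bmp7 led the BMP and GDF ligands in both libraries, at 18.1 in the cKO and 17.6 in the control. Bmp6 followed at 12.7 in the cKO and 14.6 in the control, and Gdf11 at 8.98 in the cKO and 8.03 in the control. Of the summed level of these 8 genes, Bmp7 made up 39.7% in the cKO and 36.7% in the control, and Gdf7 0.178% in the cKO and 1.95% in the control. Gdf7 thus contributed little of the ligand RNA in either library. Bmp1 is named with the BMPs but encodes the procollagen C-proteinase, which also cleaves the antagonist chordin. It had 1814 reads in the cKO and 1903 in the control (0.05, -0.04 to 0.14).

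Of the 3 TGF-beta ligands, Tgfb2 had an interval below 0. It had 752 reads in the cKO and 932 in the control, a ratio of -0.19 (-0.33 to -0.05). Tgfb1 had 372 reads in the cKO and 353 in the control (0.19, -0.02 to 0.41), and Tgfb3 had 294 in the cKO and 307 in the control (0.06, -0.18 to 0.29). The order of levels per exon length differed, with Tgfb1 above Tgfb2 in the cKO (9.88 and 8.35) and Tgfb2 above Tgfb1 in the control (9.54 and 8.63). The Poisson intervals of the 2 genes overlapped in both libraries. They were 8.90 to 10.93 for Tgfb1 and 7.76 to 8.97 for Tgfb2 in the cKO. In the control they were 7.76 to 9.58 for Tgfb1 and 8.93 to 10.17 for Tgfb2. The difference between these 2 genes was not tested, and it also rests on their exon lengths. Among the activin subunits, Inhba, which forms activin A, had 63 reads in the cKO and 102 in the control (-0.58, -1.05 to -0.11). Inhbb, which forms activin B and made up most of the subunit level, had 291 in the cKO and 305 in the control (0.05, -0.19 to 0.29). The lower ratio was thus seen in the rarer subunit.

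**Figure D2:**
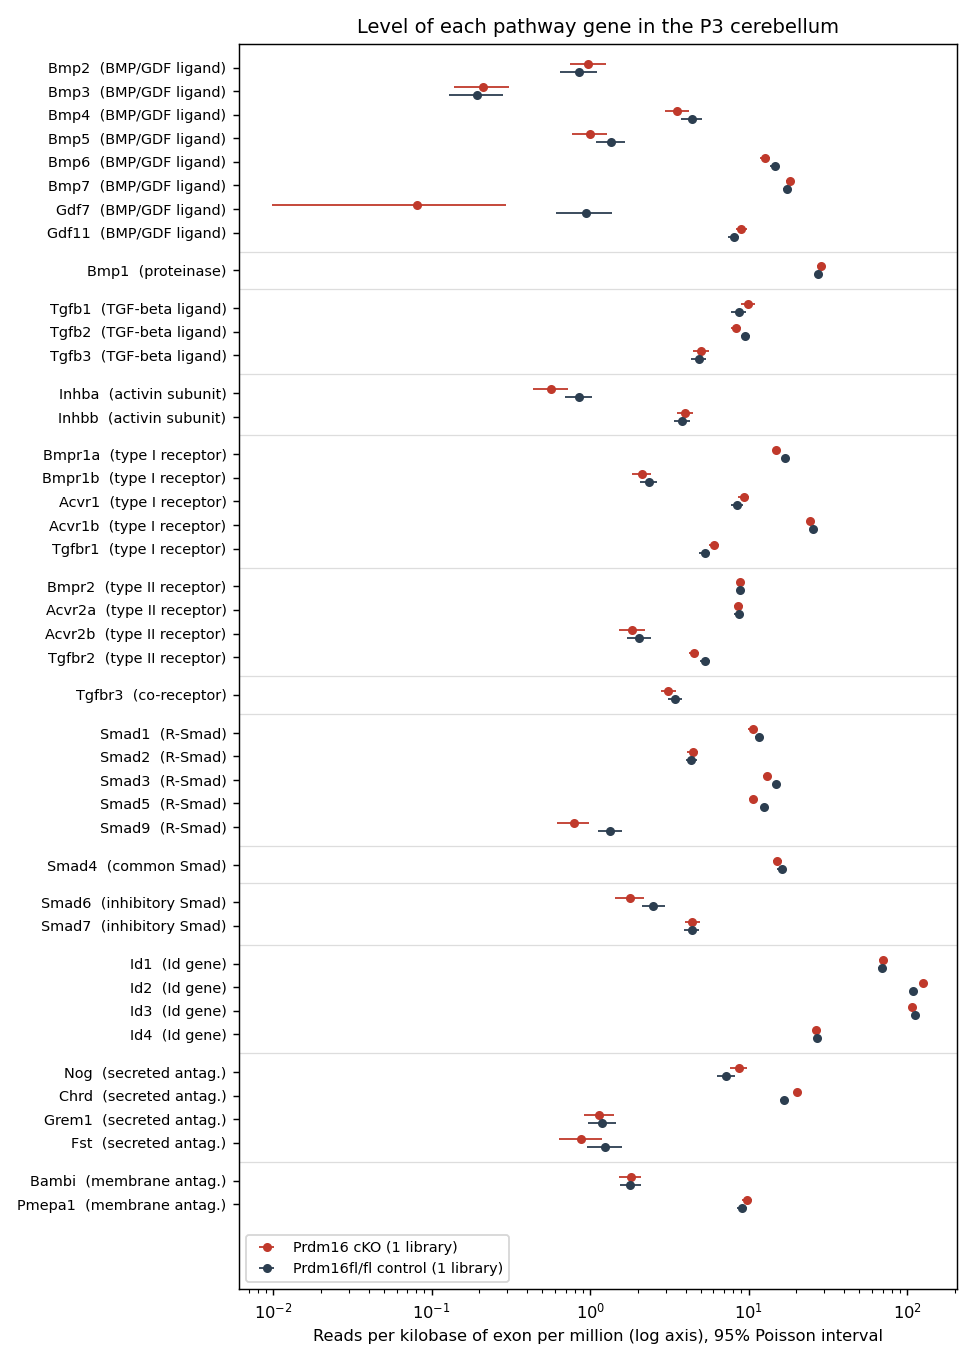
Levels in RPKM, the reads per exon length and library size (log axis), are shown for each gene, with the cKO library above the control library and lines for 95% Poisson intervals. Id1, Id2 and Id3 are the highest, at 70.5 to 125.8 in the cKO and 69.3 to 111.3 in the control, and the 2 points of Gdf7, at 0.0812 and 0.935, are the farthest apart.

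Receptor genes differed by less than 1.2-fold in all 10 cases. Bmpr1a, the type I receptor for BMPs, had 1558 reads in the cKO and 1938 in the control, or 89.96 and 103.1 CPM (-0.20, -0.29 to -0.10). Tgfbr2, the type II receptor for TGF-beta, had 641 reads in the cKO and 818 in the control (-0.23, -0.39 to -0.08). Tgfbr1, its type I partner, had the opposite sign, with 672 in the cKO and 635 in the control (0.20, 0.04 to 0.36). The receptor pair for TGF-beta thus had ratios of opposite sign, each small. The remaining 7 intervals held 0. Bmpr1b, a second BMP type I receptor, had 214 cKO and 256 control reads (-0.14, -0.41 to 0.13). Acvr1, which binds BMPs, had 586 cKO and 576 control reads (0.14, -0.03 to 0.31). Acvr1b, the activin type I receptor, was the most abundant receptor per exon length and had 1868 cKO and 2118 control reads (-0.06, -0.15 to 0.03).

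Among the type II receptors other than Tgfbr2, Bmpr2 and Acvr2a were nearly equal between the libraries, while Acvr2b had a wider interval. Bmpr2 had 1965 reads in the cKO and 2128 in the control (0.00, -0.09 to 0.09), and its sign turned with the scaling. Acvr2a had 849 in the cKO and 928 in the control (-0.01, -0.15 to 0.13), and Acvr2b 114 in the cKO and 137 in the control (-0.15, -0.52 to 0.22). Tgfbr3, the co-receptor betaglycan, had 328 in the cKO and 394 in the control (-0.15, -0.36 to 0.07). Summed over the 10 receptor genes, the cKO held 507.8 CPM and the control 528.2 CPM (-0.06, -0.10 to -0.01).

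Of the 8 Smads, 4 had intervals below 0 and 0 above, against 15.5% below and 17.0% above over all genes. These Smads had 208 to 3003 reads over both libraries. Among all genes with at least 500 reads the shares were 20.0% below and 25.4% above. Summed over the class, the cKO had 318.8 CPM and the control 354.6 CPM, a ratio of -0.15 (-0.20 to -0.10). Smad9, the least abundant BMP Smad, had 73 reads in the cKO and 135 in the control, or 4.21 and 7.18 CPM. Its ratio of -0.77 (-1.20 to -0.35) was 1.70-fold lower in the cKO. Smad5 had 1316 reads in the cKO and 1687 in the control (-0.24, -0.35 to -0.14). Smad1, its close relative, had 952 in the cKO and 1126 in the control (-0.12, -0.25 to 0.00), an interval that just held 0. All 3 BMP Smads therefore stood below 0. Together, a grouping chosen with the values known, they had 135.2 CPM in the cKO and 156.8 CPM in the control (-0.21, -0.29 to -0.14).

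In the TGF-beta and activin branch, Smad3 had 1155 reads in the cKO and 1429 in the control (-0.19, -0.30 to -0.08). Smad2 had 661 in the cKO and 704 in the control (0.03, -0.13 to 0.18), a sign that turned when the libraries were scaled by their totals. Their sum, also grouped with the values known, was 104.9 CPM in the cKO and 113.5 CPM in the control (-0.11, -0.20 to -0.02). This interval overlaps that of the BMP Smads. The common partner Smad4 had 938 cKO and 1084 control reads (-0.09, -0.22 to 0.04). Smad6, which restrains BMP signalling and is itself a BMP target, had 92 cKO and 140 control reads (-0.49, -0.88 to -0.10). Smad7, the general inhibitory Smad, had 335 cKO and 360 control reads (0.01, -0.20 to 0.23), and its sign turned with the scaling. The 2 inhibitory Smads thus had unlike ratios, although their intervals overlapped.

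The Id genes, which encode helix-loop-helix proteins that block proneural bHLH factors, included the 3 highest members per exon length, Id1, Id2 and Id3. Id2 alone had an interval without 0. It had 5313 reads in the cKO and 4960 in the control, or 306.8 and 263.9 CPM, a ratio of 0.22 (0.16 to 0.27). Id1 had 1416 reads in the cKO and 1512 in the control (0.02, -0.08 to 0.13). Id3 had 2388 in the cKO and 2674 in the control (-0.05, -0.13 to 0.04), and Id4 1772 in the cKO and 1947 in the control (-0.02, -0.11 to 0.08). Without Id2, a grouping chosen after the values were seen, the class summed to 322.0 CPM in the cKO and 326.3 CPM in the control (-0.02, -0.07 to 0.03). Per exon length Id2 stood above Id3 in the cKO, at 125.8 (122.5 to 129.3) and 107.9 (103.6 to 112.3). In the control Id2 was at 108.2 (105.2 to 111.3) and Id3 at 111.3 (107.1 to 115.6), with intervals that overlap. Id2 made up 38.0% of the class level in the cKO and 34.3% in the control.

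Secreted antagonists included the highest ratios among the 42 genes. Chrd, which encodes the BMP antagonist chordin, had 1384 reads in the cKO and 1236 in the control, or 79.9 and 65.8 CPM. Its ratio was 0.28 (0.17 to 0.39), 1.22-fold higher in the cKO. Its exons share 154 bases with Thpo on the opposite strand, which had 173 cKO and 132 control reads. Nog, which encodes the BMP antagonist noggin, had 254 reads in the cKO and 229 in the control (0.27, 0.00 to 0.53), an interval that held 0 with DESeq2 or library-total scaling. The other secreted antagonists were rarer. Grem1, encoding the BMP antagonist gremlin, had 82 cKO and 93 control reads (-0.06, -0.51 to 0.38), and Fst, encoding the activin antagonist follistatin, had 43 cKO and 66 control reads (-0.50, -1.09 to 0.08). Neither could be told from equal levels at this depth.

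Among the membrane antagonists, Bambi, a pseudoreceptor without a kinase, had 158 reads in the cKO and 171 in the control (0.00, -0.32 to 0.32). Pmepa1, a TGF-beta target that holds back receptor-regulated Smads, had 765 in the cKO and 775 in the control (0.10, -0.05 to 0.25). Summed over the 6 antagonists, the cKO had 155.1 CPM and the control 136.7 CPM (0.18, 0.10 to 0.26), and Chrd had 1384 of the 2686 reads in the cKO and 1236 of the 2570 in the control. The antagonist sum and the Smad sum thus leaned in opposite directions, each by less than 1.2-fold, with no replicate spread to judge them by. Of the 6 antagonists 4 stood above 0 and 2 below, with a median of 0.05. The Smad sum includes the inhibitory Smads. Meningeal fibroblast markers had a median of 0.30 and granule neuron progenitor markers one of 0.15 in the same pair of libraries. The part of either in the antagonist values was not tested.

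Other genes of the pathway were counted from a list of 100, of which 90 had a row and 84 had at least 10 reads. By the 2-fold rule 5 were lower in the cKO (5.95%, against 2.20% of all genes). Of the 84, 1 was higher, against 1.21% of all genes. The intervals lay below 0 for 23 (27.4%, against 15.5% of all genes) and above 0 for 11 (13.1%, against 17.0%). Among all genes with at least 500 reads, 20.0% lay below 0 and 25.4% above. The median was -0.06, against 0.01 over all genes. This list was chosen with earlier results of these data known, so its shares cannot serve as a test. The 5 lower genes were Sostdc1, Lmx1b, Lmx1a, Msx1 and Acvr1c, and the higher one was Mstn. Sostdc1, which encodes a secreted antagonist of BMPs and WNTs, had 28 reads in the cKO and 743 in the control, or 1.62 and 39.5 CPM (-4.61, -5.21 to -4.07). Msx1, a homeobox gene that BMPs induce in the roof plate, had 314 reads in the cKO and 764 in the control (-1.16, -1.36 to -0.97). Its relative Msx2 had 495 cKO and 506 control reads (0.09, -0.10 to 0.27), and Msx3 had 49 cKO and 31 control reads (0.78). Lmx1a and Lmx1b are LIM homeobox genes of the roof plate and midbrain, listed here with the response genes. Lmx1a had 94 reads in the cKO and 235 in the control (-1.20, -1.56 to -0.85), and Lmx1b 30 in the cKO and 150 in the control (-2.20, -2.82 to -1.63). Choroid plexus markers had a median of -3.86 and brainstem neuron markers one of -0.92 in the same pair of libraries, and their part in these values was not tested. Acvr1c, the type I receptor ALK7, had 3 cKO and 13 control reads (-2.00, -4.45 to -0.13), and Mstn, the ligand myostatin, had 14 cKO and 5 control reads (1.60, 0.05 to 3.43).

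**Figure D3:**
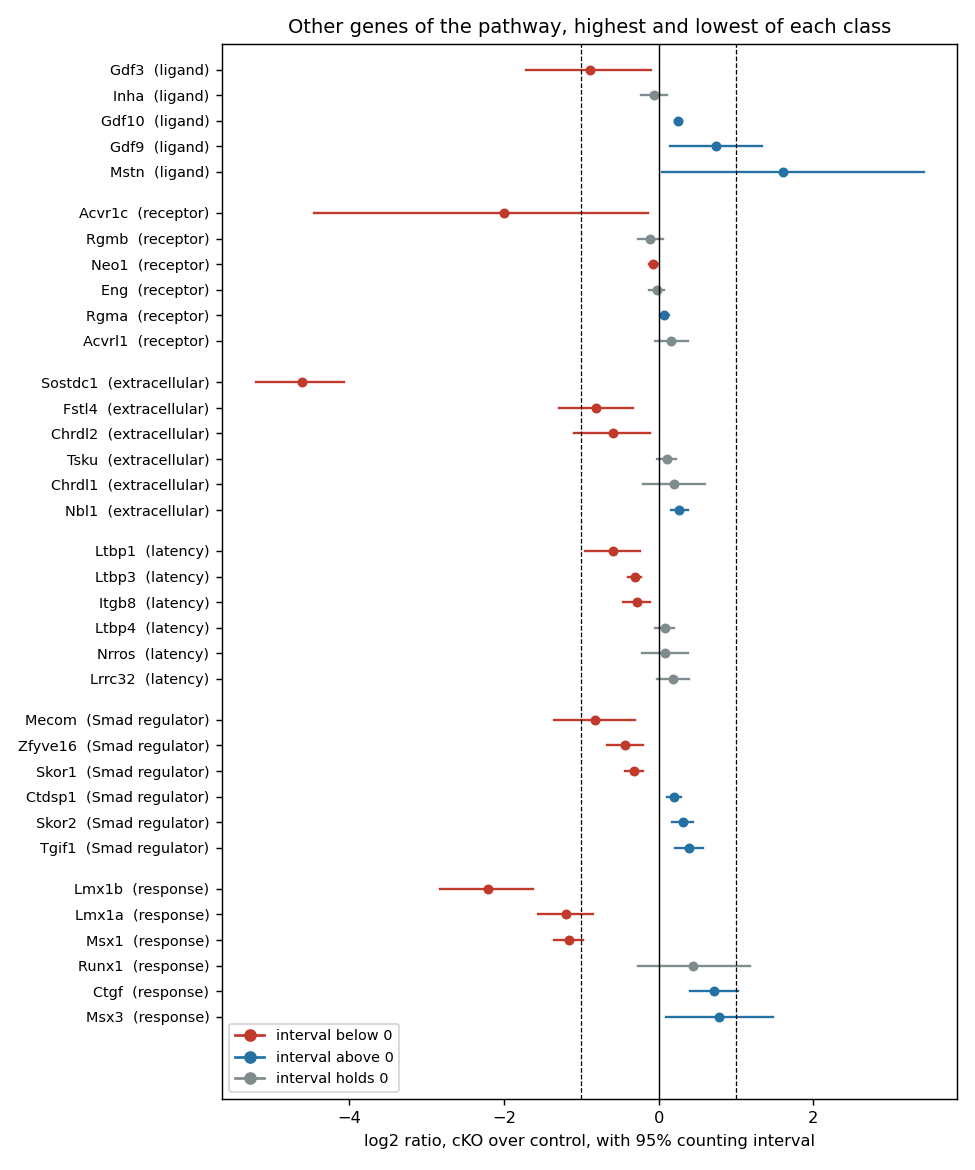
Log2 ratios of cKO to control (horizontal axis) and their 95% counting intervals are shown for other pathway genes, namely those past the 2-fold rule and, among genes with at least 50 reads, the 3 highest and 3 lowest of each class. Sostdc1 at -4.61 and Lmx1b at -2.20 are the lowest, and Mstn at 1.60 is the highest on 19 reads.

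Among the other ligands, Gdf10, a Bergmann glia transcript in this tissue and the most abundant of them, had 7733 reads in the cKO and 7028 in the control (0.26, 0.21 to 0.30). Gdf9 had 63 cKO and 41 control reads (0.74, 0.15 to 1.34), Gdf3 had 21 cKO and 42 control reads (-0.88, -1.71 to -0.09), and Inha, the inhibin alpha subunit, had 548 cKO and 622 control reads (-0.06, -0.23 to 0.10). Among other receptors and co-receptors with at least 50 reads, Acvrl1, an endothelial type I receptor, was at 0.16 (-0.05 to 0.37) and the BMP co-receptor Rgma at 0.07 (0.02 to 0.13). Rgmb (-0.11, -0.27 to 0.05), Neo1 (-0.07, -0.13 to -0.01) and endoglin, Eng (-0.03, -0.12 to 0.07), were below 0. Extracellular regulators with at least 50 reads ran from Sostdc1, Fstl4 (-0.80, -1.29 to -0.33) and Chrdl2 (-0.59, -1.09 to -0.11) up to Tsku (0.10), Chrdl1 (0.20, -0.20 to 0.59) and Nbl1 (0.27, 0.16 to 0.38). The intervals of the chordin-like genes Chrdl1 and Chrdl2 overlapped.

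Of 9 genes for latency and activation of TGF-beta, 3 had intervals below 0 (33.3%, against 15.5% of all genes) and 0 above, against 17.0%. They were the latent TGF-beta binding protein genes Ltbp1 (-0.60, -0.95 to -0.25) and Ltbp3 (-0.31, -0.39 to -0.22) and the integrin gene Itgb8 (-0.28, -0.46 to -0.11), whose product releases active TGF-beta. Ltbp3 had 1943 reads in the cKO and 2612 in the control. Ltbp4 (0.08), Nrros (0.08) and Lrrc32 (0.19, -0.02 to 0.40) were the highest of this class among genes with at least 50 reads. Among 19 Smad regulators, 3 intervals lay above 0 (15.8%, against 17.0% of all genes) and 6 below (31.6%, against 15.5%). The latency genes had 194 to 4555 reads over both libraries and the Smad regulators 134 to 7311. Among all genes with at least 500 reads the shares were 25.4% above and 20.0% below. Tgif1, a TGF-beta corepressor, had 546 reads in the cKO and 451 in the control (0.39, 0.21 to 0.58), followed by Skor2 (0.31, 0.17 to 0.45), a Purkinje cell corepressor, and the phosphatase gene Ctdsp1 (0.20). Mecom, the Prdm16 paralog, had 49 cKO and 94 control reads (-0.82, -1.35 to -0.31), and the endosomal adaptor gene Zfyve16 (-0.43) and the corepressor gene Skor1 (-0.32) were next. Ski had 3540 cKO and 3771 control reads (0.03, -0.04 to 0.09). Of the 16 response genes, Ctgf, a TGF-beta target, had 216 cKO and 143 control reads (0.71, 0.40 to 1.03), and Runx1 had 39 cKO and 31 control reads (0.45, -0.27 to 1.18).

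**Figure D4:**
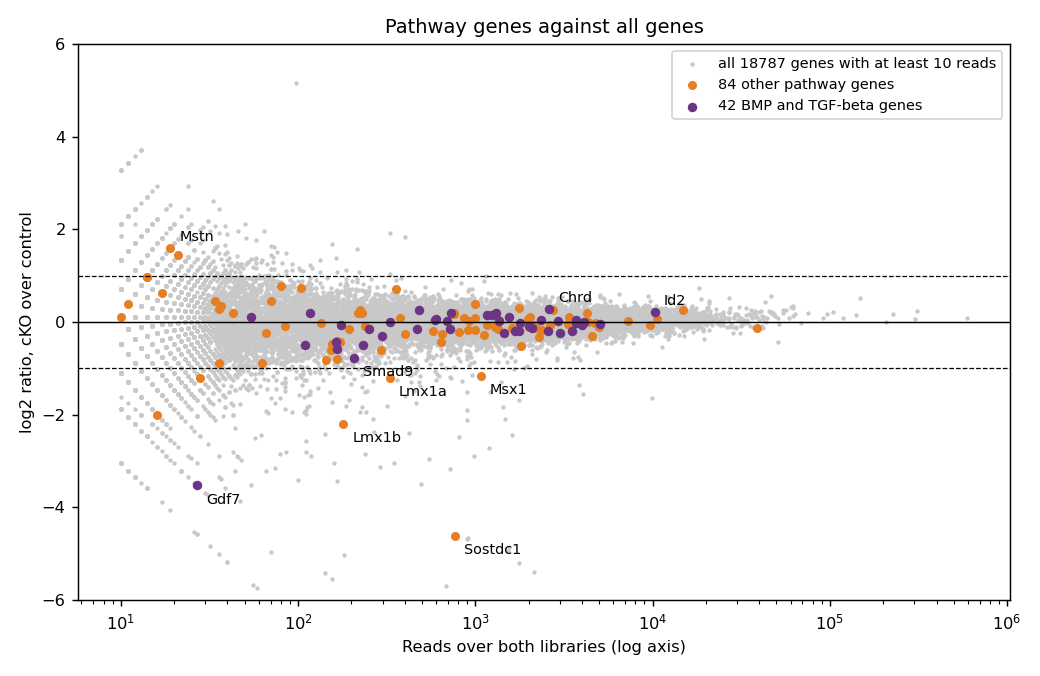
The log2 ratio of cKO to control (vertical axis) is plotted against reads over both libraries (log axis) for all 18787 genes with at least 10 reads (grey), the 42 BMP and TGF-beta genes (purple) and 84 other pathway genes (orange); 12 genes lie outside the vertical range. Nearly all purple points lie inside the grey band between the dashed 2-fold lines, and Gdf7 and Sostdc1 lie far below it.

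The authors' deposited table marked 1 of the 42 genes as significant, Gdf7, with an adjusted p of 4.25e-05 in that table, and 622 of all 22423 genes (2.77%). All genes marked in the authors' deposited table differ by at least 2-fold there. Of the 42 genes, 12 (28.6%) have an adjusted p under 0.05 in the authors' deposited table, against 21.5% of all genes, and 11 of them are unmarked. These include Id2 at 1.33e-09, Smad5 at 4.65e-06, Bmpr1a at 4.2e-05 and Chrd at 9.4e-05 in the authors' deposited table. That table also marked 5 of the other pathway genes, Sostdc1, Msx1, Lmx1b, Lmx1a and Acvr1c. How the authors' p-values were computed is not given. With 1 column of counts per genotype, no spread between animals can be seen behind them, so they are not taken as a replicate check. Without the 12 members whose exons share bases with another annotated gene, an alternative chosen after seeing the data, intervals lay below 0 for 6 members in place of 10 and above 0 for 3 in place of 4. The ones that dropped out were Bmp6, Tgfb2, Bmpr1a and Smad5 below 0 and Chrd above.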

How the data were processed

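RNA was made into Illumina TruSeq libraries from P3 cerebellum, per the labels' protocols. The authors deposited unnormalized read counts per gene, in 1 cKO and 1 control column, per the file headers. TopHat2 2.0.12, Bowtie2 2.2.3, HTSeq 0.6.0 and build mm9 are named in the submitters' processing notes without their roles. The authors' CPM values are the count multiplied by a constant of its column (tolerance 0.0001), with 0.5 in place of 0. The authors' fold column is the ratio of these values and the log2 column its logarithm, per the file headers. No source used here names the tool behind the deposited p-value columns.

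Library sizes were adjusted by TMM normalization (edgeR 4.0.16, R 4.3.3), and genes with at least 10 reads over both libraries were compared. Ratios carry exact Clopper-Pearson 95% intervals and levels exact Poisson 95% intervals, which cover counting error only, and reads lacking molecular identifiers cannot be taken as separate molecules. Genes without reads were set to a floor of 3. Exon lengths and overlaps came from GENCODE M21 on GRCm38, which differs from the authors' build. Alternatives were DESeq2 1.42.0 size factors, upper quartile and library-total scaling, other read minimums, a 1.5-fold rule and 99% intervals. The scripts were tested on simulated data. Python 3.11.15, scipy 1.17.1 and matplotlib 3.10.9 were used. Every member is named. The other pathway genes named are those past the 2-fold rule and the 3 highest and 3 lowest of each class with at least 50 reads, and Msx2 and Ski were chosen after their values were seen. Members and lists, including markers of endothelial cells, microglia and astrocytes, were chosen with earlier results of these data known. The medians of those 3 lists were -0.02, -0.08 and -0.02.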

Additional observations from a re-analysis of the deposited data

How the results depend on the processing

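No paired analysis was possible because each genotype had 1 library, and for the same reason no replicate could be left out. All 126 ratios of single members under the 3 other scalings stayed within their counting intervals. This was fixed in advance, because a scaling moves every ratio by the same constant. The largest was -0.03, less than the reach of any member's interval. Library-total scaling moved every ratio by -0.03, which turned the sign of Bmpr2, Bambi, Smad7, Id1 and Smad2, DESeq2 scaling turned that of Bmpr2, Bambi and Smad7, and upper quartile scaling turned none. Members with an interval below 0 numbered 10 to 13 and above 0 numbered 3 to 4 over the 4 scalings. A minimum of 50 reads left 0 members lower by the 2-fold rule, against 1, since Gdf7 has fewer reads. Of the other pathway genes it left 4 lower, against 5, and 0 higher, against 1, since Acvr1c and Mstn have fewer reads. The 1.5-fold rule gave 2 members lower, and 10 other pathway genes lower and 4 higher. With 99% intervals 4 other pathway genes were lower and 0 higher. Without members that share exon bases with another gene, a choice made after seeing the data, 6 had an interval below 0. Depth limits Gdf7, Bmp3, Fst, Bmp2, Bmp5 and Inhba most, and 1 library per genotype leaves every small ratio without a replicate spread.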
